A study of Mus musculus with 24 samples.

Results

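Adrenal glands of testosterone-injected female mice null for Kcnk3 were compared with adrenal glands of sham male mice null for Kcnk3. These are the high-androgen groups of each sex by their labels, which give no androgen level. The 6 arrays were taken by their labels, 3 in each group, out of 24 arrays in the series. The values analysed were 29702 autosomal features out of 31108 features in all. The comparison asks how far testosterone brings null female glands to the state of null male glands.

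All mice were labelled C57BL/6, and each sample was total RNA of adrenal gland hybridised to a one-colour Agilent array. The groups used were F null testosterone (female, Kcnk3 null, injected with testosterone), F null sham (female, Kcnk3 null, sham), M null castrated and M null sham (male, Kcnk3 null, castrated or sham). M WT castrated and M WT sham (male, wild type) supplied a list of genes that castration moves, read on arrays outside the null comparisons. F WT testosterone (female, wild type, injected with testosterone) entered the comparison of null with WT glands. F WT sham (female, wild type, sham) gave the base for Kcnk3 signal in females. The labels used here give no age, dose or duration, and do not say whether a sample was 1 animal or a pool, so p-values measure only the spread between these samples.

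Kcnk3 encodes TASK1, a background potassium channel that helps to keep cells of the zona glomerulosa, the aldosterone-producing outer cortex, hyperpolarised. The mouse adrenal cortex differs between the sexes. Androgen, acting through the androgen receptor, makes the X zone regress in males, an inner cortical layer marked by the 20-alpha-hydroxysteroid dehydrogenase Akr1c18, and shifts the cortex towards a male pattern of expression. The medulla holds chromaffin cells, which make catecholamines.

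Levels are given as log2 of the processed signal minus the 75th percentile of the array, so 0 is the 75th percentile. A difference is the first-named group's mean minus the second's on that scale, 3 arrays against 3, with its standard error (SE) from limma. Features whose Benjamini-Hochberg adjusted p, taken over every feature of the comparison, was below 0.05 are called. Arrays are listed in the order 1, 2 and 3 of the labels.

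The glands carried the markers of adrenal cortex. Cyp11b1, the last enzyme of corticosterone synthesis, read 7.72, 8.17 and 8.18 in the F null testosterone arrays, against 8.10, 8.18 and 7.88 in the M null sham arrays. The probe for Kcnk3 lies in the 3′ part of the gene (chromosome 5, 30927090 to 30927149, mm9), and whether this part is deleted is not given in the sources used here. Relative to WT sham arrays of the same sex, it read 5.63%, 10.7% and 6.34% in F null testosterone arrays, against 37.9%, 69.0% and 34.6% in M null sham arrays. Levels of Xist, the RNA that coats the silenced X, were 60.6%, 158% and 243% of the F null sham mean in F null testosterone arrays, against 19.5%, 18.3% and 6.08% in M null sham arrays. The Y-linked genes Ddx3y and Eif2s3y averaged at most 0.180% of the M WT sham level in the F null testosterone arrays, against 49.4% to 71.5% in the M null sham arrays. M WT sham arrays read 0.903% to 1.11% for Xist. All 3 M null sham arrays thus had Xist above the WT male level, arrays 1 and 2 most, beside Y-linked signal. Whether samples were mixed was not tested, and group names below are those of the labels. RNA integrity numbers were 7, 6 and 5 in the F null testosterone arrays, against 8, 7 and 8 in the M null sham arrays. Array 3 of F WT sham and of F WT testosterone lay on slide 4, each with an RNA integrity number of 3. Y-linked signal in the F WT sham arrays was 1.2%, 25.4% and 45.5% of the M WT sham level.

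Of the 29702 autosomal features, 68 (0.229%) differed between F null testosterone and M null sham arrays, 41 (0.138%) higher and 27 (0.0909%) lower. Of the 68, 59 had a gene symbol. The median difference over all autosomal features was -0.0026. The share higher among calls was 60.3%, and it was 41.8% of 122 with normexp and quantile normalization, 32.6% of 43 with quantile normalization and 41.4% of 99 in the deposited value table, so the balance of directions turned with the scaling. In both of these groups array numbers 1 to 3 lay on slides 1 to 3. With slide as a block 655 features (2.21%) were called, 296 higher (0.997%) and 359 lower (1.21%), and these included all 68. Differences of all autosomal features were above 0 in 49.7% and below 0 in 50.3%. Without M null sham arrays 1 and 2, 3 were called, 1 of them among the 68, and the 1 array left in that group was assumed to vary like the other groups.

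**Figure D1:**
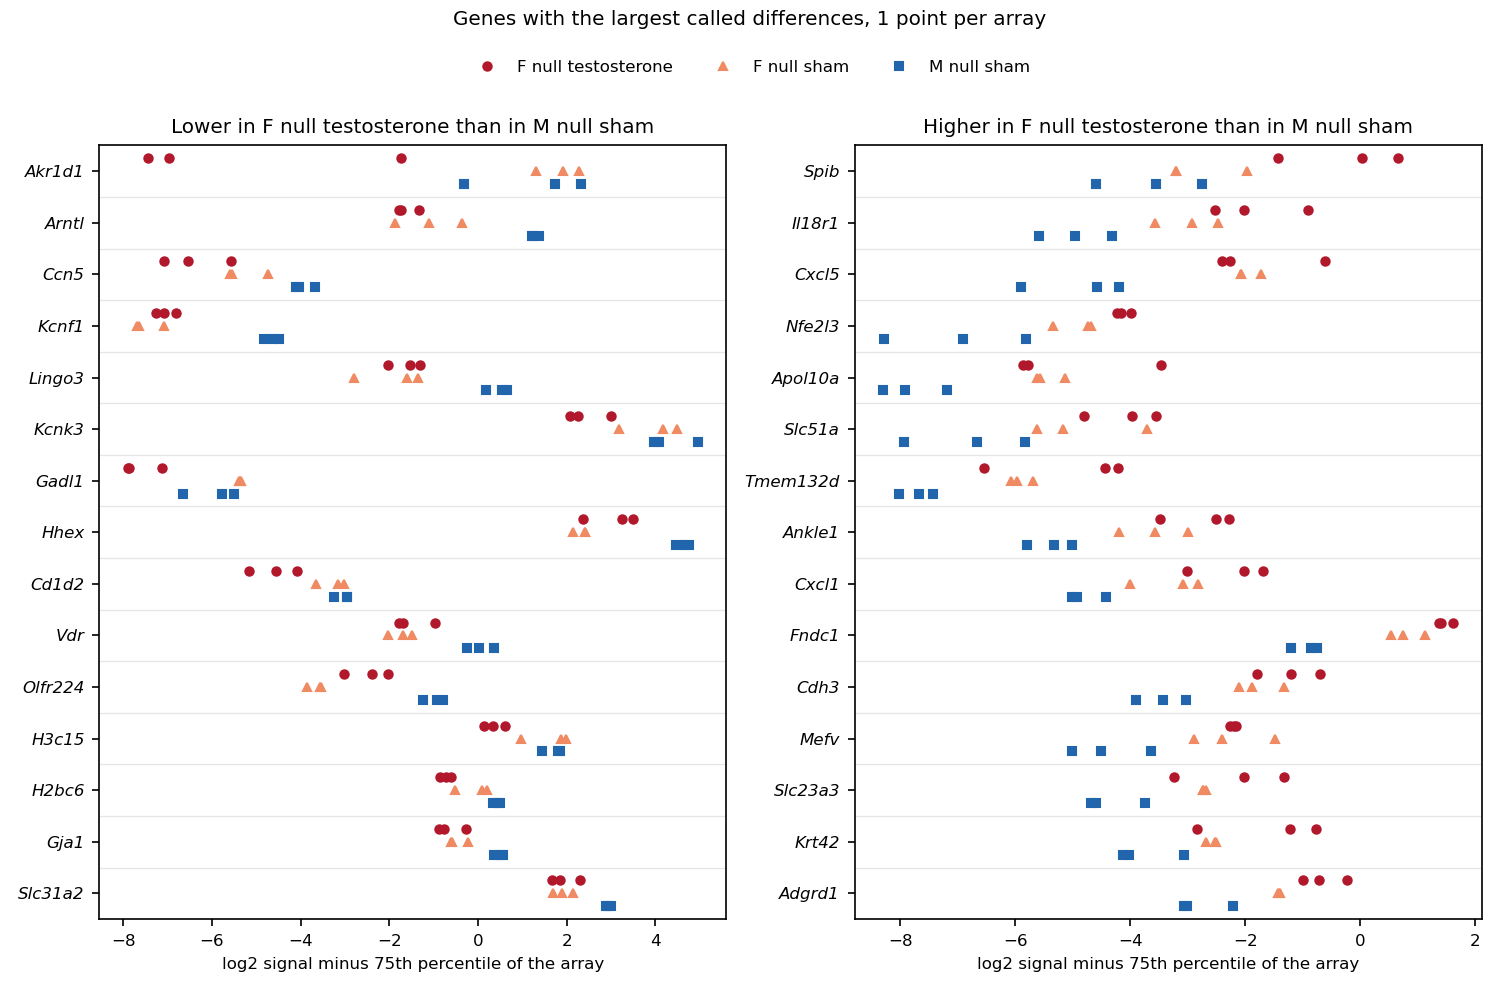
Levels (log2 signal minus the 75th percentile of the array, horizontal axis) of the 15 genes with the largest called falls (left) and the 15 with the largest called rises (right), 1 point per array for F null testosterone, F null sham and M null sham. The genes were chosen so that the F null testosterone points lie clear of the M null sham points in every row. The F null sham points lie on either side or between.

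Akr1d1, the steroid 5-beta-reductase that clears steroid hormones, had the largest fall among called features. It read -1.73, -7.45 and -6.97 in the F null testosterone arrays, against 1.73, 2.32 and -0.32 in the M null sham arrays. The groups did not overlap. All M null sham arrays but only 1 of the 3 testosterone arrays were well above background, so the size of the fall is uncertain. Within slides the difference was -3.46, -9.76 and -6.65. Akr1d1 fell by 6.62 (SE 1.20, adjusted p = 0.0298, limma), and F null sham arrays read 1.92, 2.27 and 1.30. Leaving out 1 array at a time took the difference to between -8.45 and -5.59, and the adjusted p to as much as 0.136. Without M null sham arrays 1 and 2 it was -5.06 (adjusted p = 0.697).

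Akr1c18, the X-zone marker, read -3.78, -3.23 and -3.16 in the F null testosterone arrays, against 6.51, 7.00 and -3.65 in the M null sham arrays. The M null sham arrays fell into 2 levels, with array 3 at the level of the testosterone arrays, and the groups overlapped. The difference of -6.68 (SE 1.75) did not pass (adjusted p = 0.111), and it was 0.26 without M null sham arrays 1 and 2, the arrays with the higher Xist. F null sham arrays read 6.69, 6.02 and 2.85. Pik3c2g, a lipid kinase gene of the same zone, was not well above background in any F null testosterone array. It read -5.85, -7.77 and -6.99 there, against -1.03, -0.37 and -8.17 in the M null sham arrays, at least 4.77-fold lower with an adjusted p of 0.266. M null sham array 3 lay below all 3 testosterone arrays, so the groups overlapped and the bound rests on arrays 1 and 2. Without those arrays the median difference of the 3 X-zone genes was 0.26, with 2 of 3 above 0, against -3.68 with them.

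Frzb, Cst8 and Nrep belong with Akr1d1 to a list of 6 genes that earlier results of these data showed lower with androgen. None of these 3 passed. Frzb, a secreted Wnt antagonist, read 1.14, -0.27 and -1.41 in the F null testosterone arrays, against 1.66, 2.57 and 1.09 in the M null sham arrays (difference -1.95, SE 0.56, adjusted p = 0.148). Cst8, a cystatin, read -0.34, -0.80 and -0.31 against 1.78, 2.20 and 0.20 in the M null sham arrays (difference -1.87, SE 0.44, adjusted p = 0.080). M null sham array 3 was the lowest of its group for each of these genes. Without arrays 1 and 2 of that group the Cst8 difference was -0.68.

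The potassium channel genes Kcnf1 and Kcnk3 were among the falls, beside 0.0909% of all autosomal features called lower. Kcnk3 is the gene for which the mice were null. A list of 29 other membrane potential and calcium signalling genes held no called member, and its median was -0.12. Kcnf1, a modulatory voltage-gated potassium channel subunit, was not well above background in any F null testosterone array. It read -7.27, -6.80 and -7.07 there, against -4.49, -4.82 and -4.62 in the M null sham arrays, where all 3 were well above background. Kcnf1 was at least 1.79-fold lower (adjusted p = 0.000849), and F null sham arrays were not well above background either, at -7.70, -7.65 and -7.08. Kcnk3 itself read 2.08, 3.01 and 2.26 in the F null testosterone arrays, against 4.09, 4.96 and 3.96 in the M null sham arrays (difference -1.89, SE 0.32, adjusted p = 0.0247). The levels did not overlap, and F null sham arrays read 4.49, 4.18 and 3.19.

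The promoter window of Kcnf1, from 250 bases before to 50 after its start (RefSeq, GRCm38.p6, chr12:17176839-17177138, minus strand), is shown because it holds a site for SF-1, the nuclear receptor that directs steroidogenic cells. The site, AAGGTCA searched on both strands, is in capitals.
Kcnf1: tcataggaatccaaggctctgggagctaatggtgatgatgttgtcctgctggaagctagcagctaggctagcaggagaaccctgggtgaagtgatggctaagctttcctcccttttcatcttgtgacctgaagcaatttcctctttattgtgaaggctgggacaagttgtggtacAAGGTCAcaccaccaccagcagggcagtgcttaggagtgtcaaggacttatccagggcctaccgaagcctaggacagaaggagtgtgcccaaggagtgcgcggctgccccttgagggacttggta
AAGGTCA was in 4.66% of 27025 genes' windows and in 5 of the 42 called genes that matched the promoter table, out of 59. A match is a description of the letters and not a bound site.

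Arntl, which encodes the clock transcription factor BMAL1, read -1.73, -1.33 and -1.78 in the F null testosterone arrays, against 1.37, 1.23 and 1.22 in the M null sham arrays. It fell by 2.89 (SE 0.53, adjusted p = 0.0313), with within-slide differences of -3.10, -2.56 and -2.99, and without M null sham arrays 1 and 2 the difference was -2.83 (adjusted p = 0.506). F null sham arrays read -0.35, -1.11 and -1.88, near the testosterone arrays. Of 18 clock genes Arntl alone was called, and the list median was 0.29, beside -0.0026 for all autosomal features. Its partners Clock (difference -0.84, SE 0.23, adjusted p = 0.132) and Npas2 (not well above background in F null testosterone arrays, adjusted p = 0.343) did not pass, nor did 2 targets of BMAL1. Per3, a period gene, read -3.18, -2.11 and -1.03 in the F null testosterone arrays, against -4.35, -3.69 and -4.39 in the M null sham arrays (difference 2.04, SE 0.46, adjusted p = 0.0731). Ciart, a repressor of BMAL1, read -2.02, -2.23 and -1.71 against -4.02, -4.60 and -4.43 in the M null sham arrays (adjusted p = 0.156). With slide as a block, 3 clock genes were called higher and 2 lower, beside 0.997% and 1.21% of all features.

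**Figure D2:**
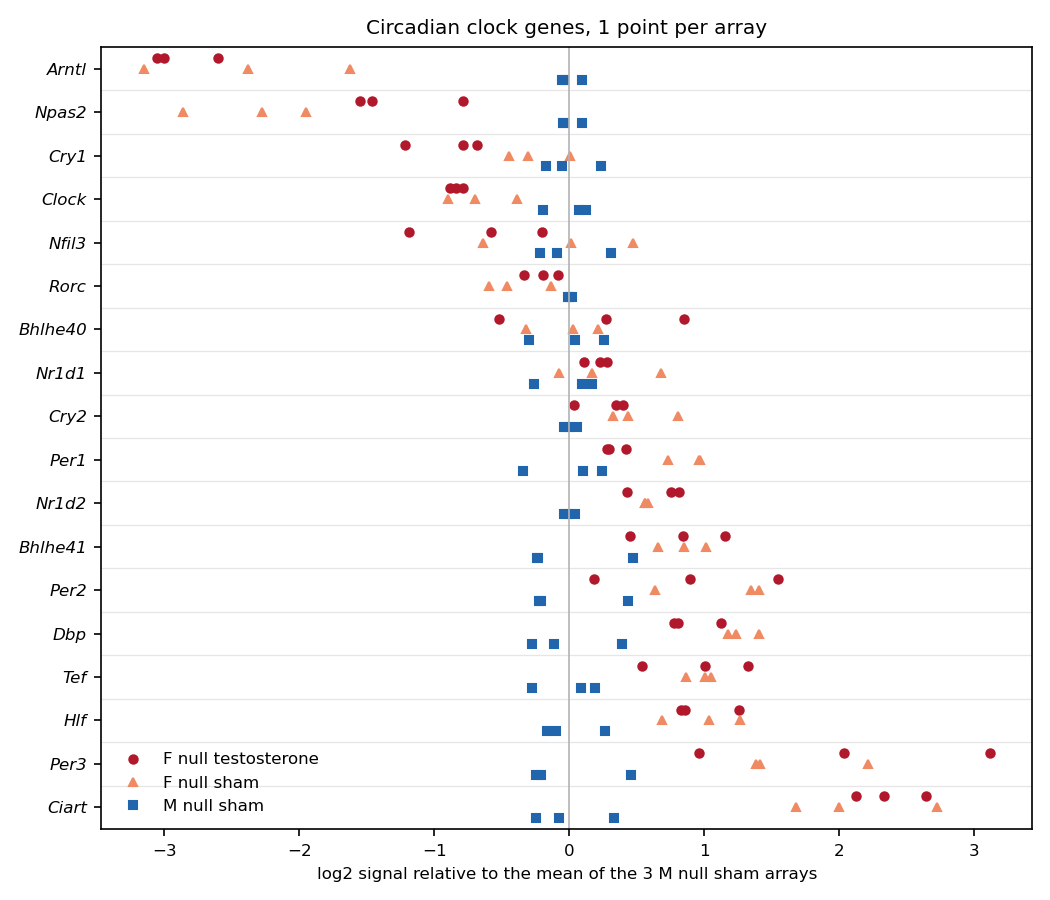
Levels of 18 clock genes relative to the mean of the 3 M null sham arrays (log2, horizontal axis), 1 point per array, ordered by the F null testosterone minus M null sham difference. Arntl is at the top with F null testosterone points near -3, and Per3 and Ciart are at the bottom with F null testosterone points above 0.

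Genes of transcription and signalling were among the falls. Hhex, a homeobox factor, read 2.36, 3.25 and 3.50 in the F null testosterone arrays, against 4.46, 4.76 and 4.65 in the M null sham arrays (difference -1.58, SE 0.31, adjusted p = 0.0394). Vdr, the vitamin D receptor, read -1.69, -1.78 and -0.97 against 0.36, 0.02 and -0.24 in the M null sham arrays (difference -1.53, SE 0.27, adjusted p = 0.0294). F null sham arrays read 2.42, 2.42 and 2.14 for Hhex and -1.48, -2.04 and -1.70 for Vdr, so both genes stayed nearer the female sham level. Lingo3, a leucine-rich repeat membrane protein gene, fell by 2.09 (SE 0.41, adjusted p = 0.0394). Ccn5, a secreted matricellular protein gene that antagonises Wnt signalling, fell by 2.46 (SE 0.46, adjusted p = 0.0313), with 1 of the 3 testosterone arrays well above background. Ccn5 comes from a list chosen on earlier results of these data, so its direction is no independent evidence.

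Penk, the proenkephalin gene of chromaffin cells, read 1.97, 2.23 and 2.19 in the F null testosterone arrays, against 2.97, 2.85 and 2.97 in the M null sham arrays. It fell by 0.80 (SE 0.12, adjusted p = 0.0101) and was as low in F null sham arrays, at 2.03, 1.93 and 2.06. Of 20 chromaffin genes Penk alone passed, beside 0.229% of all features, 19 had differences below 0, beside 50.3%, and the median was -0.81. Fewer chromaffin cells and less RNA per cell cannot be told apart in whole glands. Th, the rate-limiting enzyme of catecholamine synthesis, read 5.43, 3.70 and 5.52 in the F null testosterone arrays, against 6.01, 6.11 and 5.66 in the M null sham arrays (adjusted p = 0.232). F null testosterone array 2 was the lowest of the 6 for Th, and its summed linear signal over the list was 336, beside 723 and 1110 in arrays 1 and 3, against 872 to 1160 in the M null sham arrays.

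Other named falls were Cd1d2, an antigen-presenting CD1 gene, at -1.55, the olfactory receptor gene Olfr224 at -1.50 and the gap junction gene Gja1, a connexin, at -1.13. The copper transporter gene Slc31a2 fell by 1.00. The histone genes H3c15 and H2bc6 fell by 1.33 and 1.16. Adjusted p lay between 0.00293 and 0.0443 for these 6. Gadl1, a decarboxylase gene, was called (adjusted p = 0.0261), but no F null testosterone array and only 1 M null sham array was well above background, so no fold is given. Cyp4b1, a cytochrome P450 gene, fell by 0.63 (SE 0.12, adjusted p = 0.0322).

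Genes of immune cells and inflammation were among the rises. Spib, an Ets factor of B cells and dendritic cells, read 0.65, 0.02 and -1.44 in the F null testosterone arrays, against -4.59, -2.75 and -3.56 in the M null sham arrays. It rose by 3.38 (SE 0.58, adjusted p = 0.0247), and F null sham arrays read -3.20, -1.97 and -3.20. F null testosterone array 1 also carried B-cell transcripts: Cd79b read 2.68, -1.56 and -1.47, against -1.70, -1.35 and -1.69 in the M null sham arrays. Spib was higher than in M null sham in all 3 testosterone arrays, and Cd79b clearly so in array 1. Without array 1 and M WT sham array 3 the Spib difference was 2.93 (adjusted p = 0.0467). With 1 array left out at a time it lay between 2.9 and 3.97, and the adjusted p reached 0.136 (limma). Without M null sham arrays 1 and 2 the Spib difference was 3.3.

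Il18r1, an interleukin 18 receptor chain, read -2.02, -0.91 and -2.52 in the F null testosterone arrays, against -5.59, -4.32 and -4.97 in the M null sham arrays (difference 3.14, SE 0.46, adjusted p = 0.00804). Its adjusted p reached 0.0861 (limma) when 1 array at a time was left out. The neutrophil-attracting chemokine genes Cxcl5 and Cxcl1 rose by 3.13 (SE 0.64, adjusted p = 0.0474) and 2.54 (SE 0.49, adjusted p = 0.0393). Cxcl5 lost its call whichever of the 6 arrays was left out (limma, adjusted p 0.0679 to 0.194), and Cxcl1 reached 0.16. Without F null testosterone array 1 and M WT sham array 3 neither passed. The differences were then 2.55 (limma, adjusted p = 0.0793) and 2.26 (adjusted p = 0.0527). Cxcl5 read -0.62, -2.27 and -2.41 in the F null testosterone arrays, against -4.19, -4.58 and -5.91 in the M null sham arrays, with F null sham arrays at -2.08, -1.72 and -2.07. Mefv, the pyrin gene, rose by 2.18 (SE 0.37, adjusted p = 0.0242) at 1 probe, while its other kept probe differed by -0.30. The adjusted p of the called probe reached 0.131 (limma) when 1 array at a time was left out. Casp4 and Nfkbid, named after their values were seen, rose by 1.05 and 1.42.

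Of 26 innate inflammation genes Cxcl1 alone passed, 24 had differences above 0, beside 49.7% of all features, and the median was 0.70 (0.34 with normexp and quantile normalization). Acod1, which makes itaconate in activated macrophages, read -1.59, -1.20 and -0.97 in the F null testosterone arrays, against -4.95, -2.39 and -4.87 in the M null sham arrays (adjusted p = 0.0554). Summed linear signal of the list was 79.7, 63.5 and 38.0 in the F null testosterone arrays, against 27.1, 29.7 and 19.0 in the M null sham arrays. The F null sham arrays summed to 42.9, 47.6 and 76.8, within the range of the testosterone arrays. With slide as a block 6 of the 26 were called, all higher, beside 0.997% of all features.

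Genes of matrix proteins and cell adhesion were among the rises. Fndc1, a fibronectin-domain protein gene, read 1.62, 1.40 and 1.37 in the F null testosterone arrays, against -1.20, -0.75 and -0.85 in the M null sham arrays. It rose by 2.40 (SE 0.29, adjusted p = 0.000849), stayed called whichever of the 6 arrays was left out (adjusted p at most 0.0137), and read 1.12, 0.75 and 0.54 in F null sham arrays. Its second kept probe rose by 2.02. Cdh3 (P-cadherin) rose by 2.22 (SE 0.44, adjusted p = 0.0394), the keratin gene Krt42 by 2.13, the adhesion receptor gene Adgrd1 by 2.11 and the fibrillar collagen gene Col5a2 by 1.17 (SE 0.19, adjusted p = 0.0214). With 1 array left out at a time, the adjusted p of Cdh3, Krt42 and Adgrd1 reached 0.165, 0.193 and 0.136 (limma). Col5a2 was the only call among 26 matrix genes, whose median was -0.08. Msln, the mesothelial surface protein mesothelin, read 2.55, 3.75 and 3.31 against 1.19, 1.85 and 0.90 in the M null sham arrays (difference 1.89, SE 0.35, adjusted p = 0.0313). Wt1, a mesothelial and gonadal transcription factor, had a difference of 1.77 (SE 0.37, adjusted p = 0.0554) and did not pass. Msln lies outside the naming rule and was chosen after its values were seen.

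Transport and other genes completed the rises. Slc51a, a steroid and bile acid transporter subunit, rose by 2.70 (SE 0.52, adjusted p = 0.0394, with 1 of the 3 M null sham arrays well above background) and Slc23a3, of the vitamin C transporter family, by 2.14 (SE 0.39, adjusted p = 0.0298). Their adjusted p reached 0.182 and 0.142 (limma) when 1 array at a time was left out. Nfe2l3, a CNC-family transcription factor, was not well above background in any M null sham array. It read -4.24, -4.17 and -3.99 in the F null testosterone arrays, against -6.91, -5.81 and -8.29 in the M null sham arrays, at least 3.09-fold higher (adjusted p = 0.0298). Leaving out 1 array at a time took its adjusted p to as much as 0.136. Apol10a and Tmem132d, also not well above background in M null sham arrays and above it in 2 of the 3 testosterone arrays, were at least 1.65-fold and 1.61-fold higher (adjusted p = 0.0322 and 0.0394). For these genes the adjusted p reached 0.139 and 0.145 (limma) with 1 array left out.

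The promoter window of Nfe2l3 (GRCm38.p6, chr6:51432419-51432718, plus strand) is shown because it holds the half-site AGAACA of steroid hormone receptors, the androgen receptor among them. The half-site, searched on both strands, is in capitals.
Nfe2l3: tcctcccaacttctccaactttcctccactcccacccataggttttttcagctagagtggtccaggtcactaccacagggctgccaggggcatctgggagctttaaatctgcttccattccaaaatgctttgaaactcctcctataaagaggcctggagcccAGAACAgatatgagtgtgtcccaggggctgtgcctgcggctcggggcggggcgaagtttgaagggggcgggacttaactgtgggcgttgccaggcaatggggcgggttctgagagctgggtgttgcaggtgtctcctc
AGAACA was in 19.0% of the 27025 windows, in 4 of 27 windows of called rises and in 2 of 15 windows of called falls. Neither motif contains the other.

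Genes of cell division were set against the cell cycle list. Ankle1, an endonuclease gene, read -3.49, -2.51 and -2.29 in the F null testosterone arrays, against -5.02, -5.79 and -5.33 in the M null sham arrays (difference 2.62, SE 0.38, adjusted p = 0.00688). Cenph, a kinetochore gene, and Iqgap3, a scaffold of dividing cells, both outside the naming rule, rose by 1.14 and 1.91 (adjusted p = 0.0438 and 0.0298). None of 25 cell cycle genes passed, but 24 had differences above 0, beside 49.7% of all features, and the median was 1.04. In F null sham minus M null sham all 25 were above 0 with a median of 0.92, and none was called. The median of F null testosterone minus F null sham was 0.09. The nearest to passing were Cenpa, the centromere histone (0.94, SE 0.20, adjusted p = 0.0589), and Ccnb1, cyclin B1 (1.86, SE 0.42, adjusted p = 0.0748). With slide as a block 16 of the 25 were called, all higher, beside 0.997% of all features. Ccnb1 read -0.69, -1.13 and -1.20 in the F null testosterone arrays, against -2.44, -3.06 and -3.09 in the M null sham arrays, and -0.82, -2.23 and -1.19 in F null sham arrays.

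**Figure D3:**
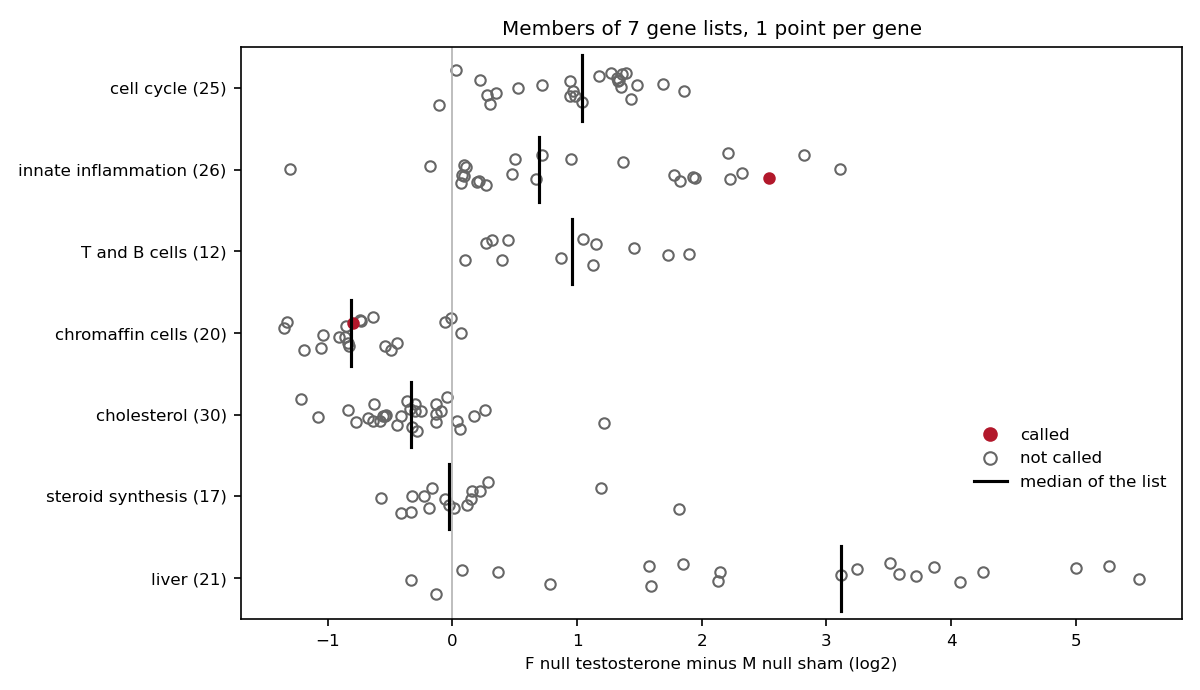
F null testosterone minus M null sham differences (log2, horizontal axis) of the members of 7 gene lists, 1 point per gene, filled where called, with the list median as a bar. Cell cycle genes centre at 1.04 and chromaffin genes at -0.81, with Penk and Cxcl1 the filled points, and the liver list spreads to the right.

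The F null sham arrays give the untreated female level. F null sham and M null sham arrays differed in 206 features (0.694%), 101 higher (0.34%) and 105 lower (0.354%). F null testosterone and F null sham arrays differed in 59 (0.199%), 9 higher (0.0303%) and 50 lower (0.168%). The order of the counts depended on the setting. F null testosterone minus M null sham gave 68 calls against 206 for F null sham minus M null sham. With slide as a block the counts were 655 and 536, and at an unadjusted p under 0.05 (limma) 3661 and 2905. The counts alone thus do not say which female group lay nearer M null sham. The 3 comparisons share arrays in pairs, so their values are set side by side without a test between them.

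Genes high in sham females and low after testosterone included secreted factors and protease inhibitors. The genes set here and below against F null sham arrays were taken mainly as the largest calls of these comparisons or from lists. The order of their groups is therefore a description and no independent evidence. Tafa2 also belongs to a list chosen on earlier results of these data. Tafa2, a secreted chemokine-like neural factor, read -3.08, -3.19 and -2.52 in the F null testosterone arrays, 0.99, 0.12 and 1.74 in F null sham arrays, and -2.33, -2.23 and -2.87 in M null sham arrays. Testosterone arrays were below F null sham arrays by 3.88 (SE 0.44, adjusted p = 0.00067), and their difference from M null sham arrays was -0.45 (SE 0.44, adjusted p = 0.741). Serpinb1a, an inhibitor of neutrophil proteases, read 4.05, 3.80 and 3.34 in the F null testosterone arrays, 7.51, 6.87 and 6.81 in F null sham arrays, and 3.86, 4.34 and 2.64 in M null sham arrays. Its difference from M null sham was 0.12 (SE 0.49, adjusted p = 0.964), and from F null sham -3.33 (SE 0.49, adjusted p = 0.00493). The testosterone and M null sham arrays overlapped for both genes.

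The neighbouring copies Serpinb1b and Serpinb1c followed the same order, with differences from M null sham of 0.21 (SE 0.43, adjusted p = 0.910) and 0.48 (SE 0.68, adjusted p = 0.843). From F null sham they differed by -2.40 (adjusted p = 0.0275) and -3.36 (adjusted p = 0.0478). The first 30 bases of the probes are shown, 5′ to 3′ as in the files, because near-identical copies could share signal. They lie in mm9 on chromosome 13 at 32934693 to 32934752 (Serpinb1a, minus strand), 33185999 to 33186058 (Serpinb1b, plus) and 32975867 to 32976102 (Serpinb1c, minus), and for Tafa2 on chromosome 10 at 123177891 to 123177950 (plus).
Tafa2: gtttatcctaggttggtttgaaattatgga
Serpinb1a: attttcttcattcggcacaatcccacatct
Serpinb1b: tgtttttcccctgaaaaatctaatttccac
Serpinb1c: ccgactgagtaagaaagtcacaaaaacagt
No pair of the Serpinb1 probes matched in more than 22 of 60 bases in any ungapped overlap.

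Npy1r, a neuropeptide Y receptor, read -1.18, -1.70 and -1.90 in the F null testosterone arrays, 2.51, 1.61 and 0.75 in F null sham arrays, and -1.14, -1.13 and -1.15 in M null sham arrays. Its difference from M null sham was -0.46 (SE 0.46, adjusted p = 0.749), and the levels of the groups nearly touched without overlapping. Dkk3, a secreted glycoprotein of the dickkopf family, had a difference of -0.05 from M null sham (SE 0.25, adjusted p = 0.971) and of -1.52 from F null sham (adjusted p = 0.0127). Macc1, a regulator of MET signalling, was not well above background in any F null testosterone array and was at least 5.39-fold lower there than in F null sham arrays (adjusted p = 0.0275). Ankrd34b, P3h2 and the mast cell chymase Cma1 also lay below F null sham, with differences of 0.23, -0.20 and -0.35 from M null sham, none of them called. Cma1 was well above background in 1 array each of the testosterone and M null sham groups.

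Genes low in sham females were divided. Tafa4, a relative of Tafa2, read -4.95, -4.58 and -4.30 in the F null testosterone arrays, against -4.20, -4.48 and -3.76 in the M null sham arrays (difference -0.46, SE 0.28, adjusted p = 0.536), and F null sham arrays were not well above background. Wif1, a secreted Wnt inhibitor, read -4.06, -3.50 and -2.85 against -3.68, -3.12 and -3.33 in the M null sham arrays, with F null sham arrays at -5.27, -6.17 and -6.59, of which 1 was well above background. Its difference was -0.09 from M null sham (SE 0.41, adjusted p = 0.967) and 2.54 from F null sham (adjusted p = 0.0105). Gulo, the last enzyme of vitamin C synthesis, rose by 3.08 against F null sham (adjusted p = 0.0281), and was highest, at 3.32, in testosterone array 1. That array carried liver transcripts, with a summed liver signal of 2290 beside 192 and 163 in testosterone arrays 2 and 3. The part of array 1 in the Gulo rise was not tested.

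Others lay part of the way. Crym, a thyroid hormone-binding protein gene, read -0.39, 0.07 and 0.44 in the F null testosterone arrays, against 1.42, 1.04 and 1.00 in the M null sham arrays, and F null sham arrays read -1.67, -1.27 and -2.43. Neither its difference from M null sham (-1.12, SE 0.40, adjusted p = 0.261) nor that from F null sham (1.83, adjusted p = 0.0829) passed, though the 3 groups did not overlap. Srd5a2, the steroid 5-alpha-reductase that makes dihydrotestosterone, read 3.99, 5.07 and 5.37 against 5.93, 5.47 and 5.64 in the M null sham arrays (difference -0.87, SE 0.56, adjusted p = 0.562). F null sham arrays read 3.96, 3.61 and 1.29. Vdr, Hhex, Lingo3 and Penk, described above, differed from F null sham by 0.12 to 0.71 with no call, and Kcnf1 was not well above background in either female group.

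**Figure D4:**
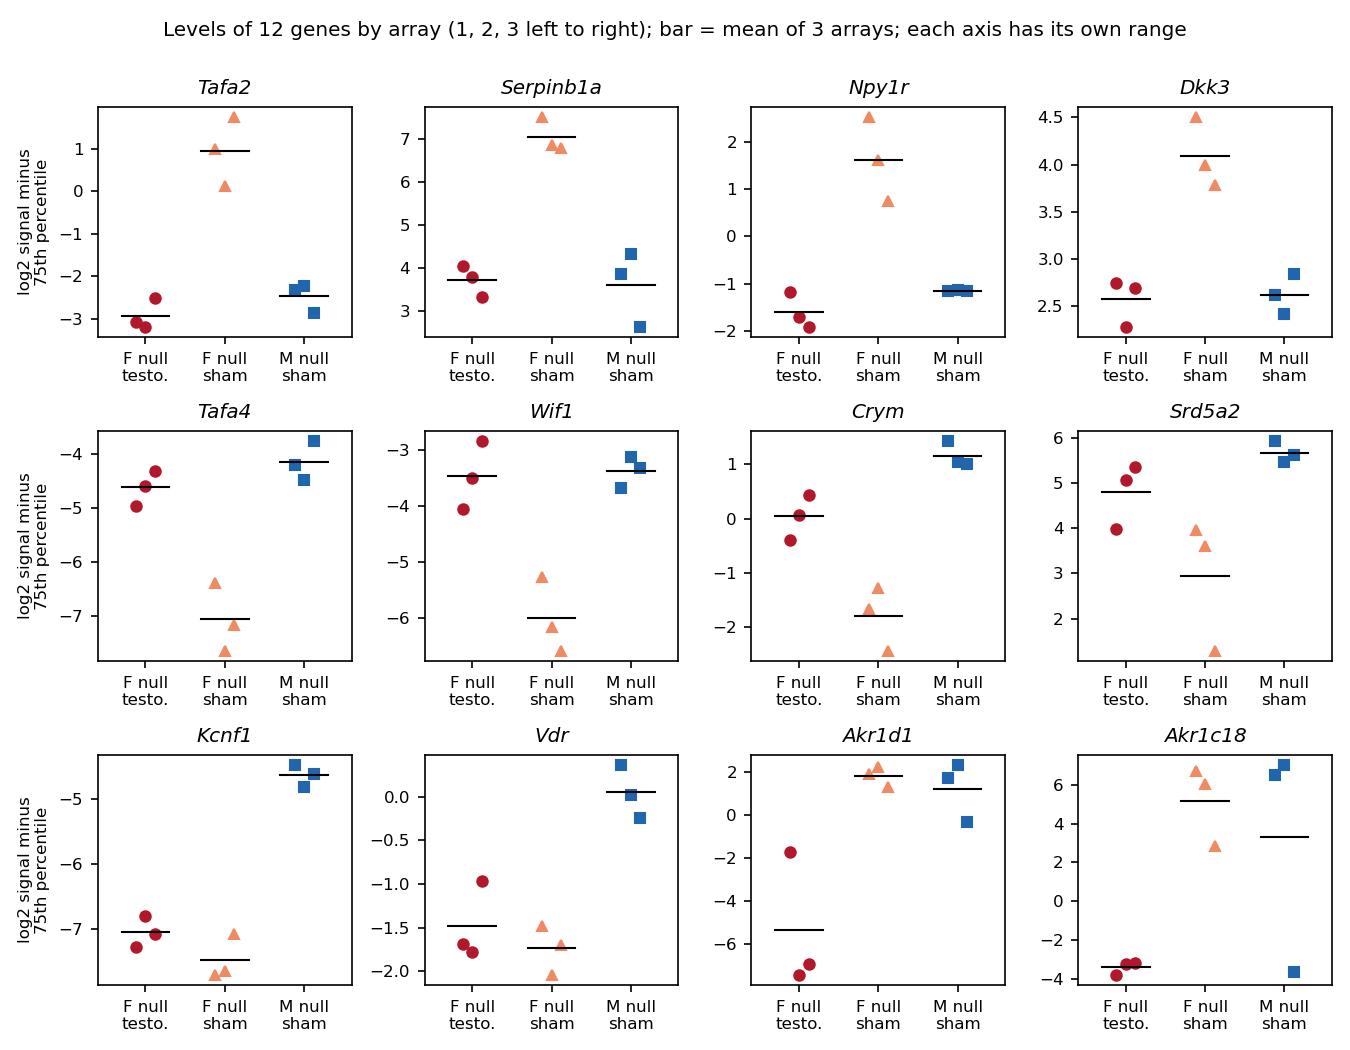
Levels (log2 signal minus the 75th percentile of the array, vertical axis, each panel with its own range) of 12 genes in F null testosterone, F null sham and M null sham arrays, 1 point per array and a bar at the mean. Tafa2, Serpinb1a, Npy1r and Dkk3 in testosterone arrays sit near M null sham and below F null sham, Tafa4 and Wif1 near M null sham and above F null sham, Kcnf1 and Vdr near F null sham, and Akr1d1 below both.

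Over the 101 features higher in F null sham than in M null sham, the median difference was 0.48 for F null testosterone minus M null sham and 1.47 for F null sham minus M null sham. The testosterone mean was nearer M null sham for 62 of the 101 and lay beyond it for 15. Over the 105 features lower in F null sham the medians were -0.68 and -1.36, and the testosterone mean was nearer M null sham for 40 and nearer F null sham for 65. These features were chosen on the sham arrays, so the counts are a description only.

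A further list came from the WT males, with its spread estimated over all 24 arrays. Castration of WT males changed 178 features (0.599%), 148 higher (0.498%) and 30 lower (0.101%). When its own 6 arrays alone were fitted 109 were called, 84 of them among the 178. Among the 30 that fell after castration, 25 were below 0 in F null testosterone minus M null sham, with a median of -0.64, beside -0.0026 over all autosomal features, and 3 were called, all lower. In F null sham minus M null sham their median was -1.26. Per array, their median level was -0.70, -0.28 and -0.20 in F null testosterone, -1.30, -1.22 and -1.46 in F null sham, and 0.35, 0.19 and 0.40 in M null sham. The 3 groups did not overlap, and the testosterone arrays lay between. The castrated null males read -1.43, -1.61 and -2.20. Xist in those arrays was 17.4%, 58.0% and 4.15% of the F null sham mean, and Y-linked signal 79.8%, 37.3% and 117% of the M WT sham level.

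Among the 148 features that rose after castration, 104 were below 0 in F null testosterone minus M null sham, with a median of -0.37, and 4 were called, all lower. Their median level was -1.75, -2.03 and -2.26 in F null testosterone, -0.98, -0.97 and -1.14 in F null sham, and -1.59, -1.18 and -1.95 in M null sham. M null sham array 3 overlapped the testosterone arrays. Without M null sham arrays 1 and 2 the median was 0.01, with 73 below 0, while that of the 30 falling features was -0.54. Castrated null males read -0.60, -0.71 and -0.32.

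**Figure D5:**
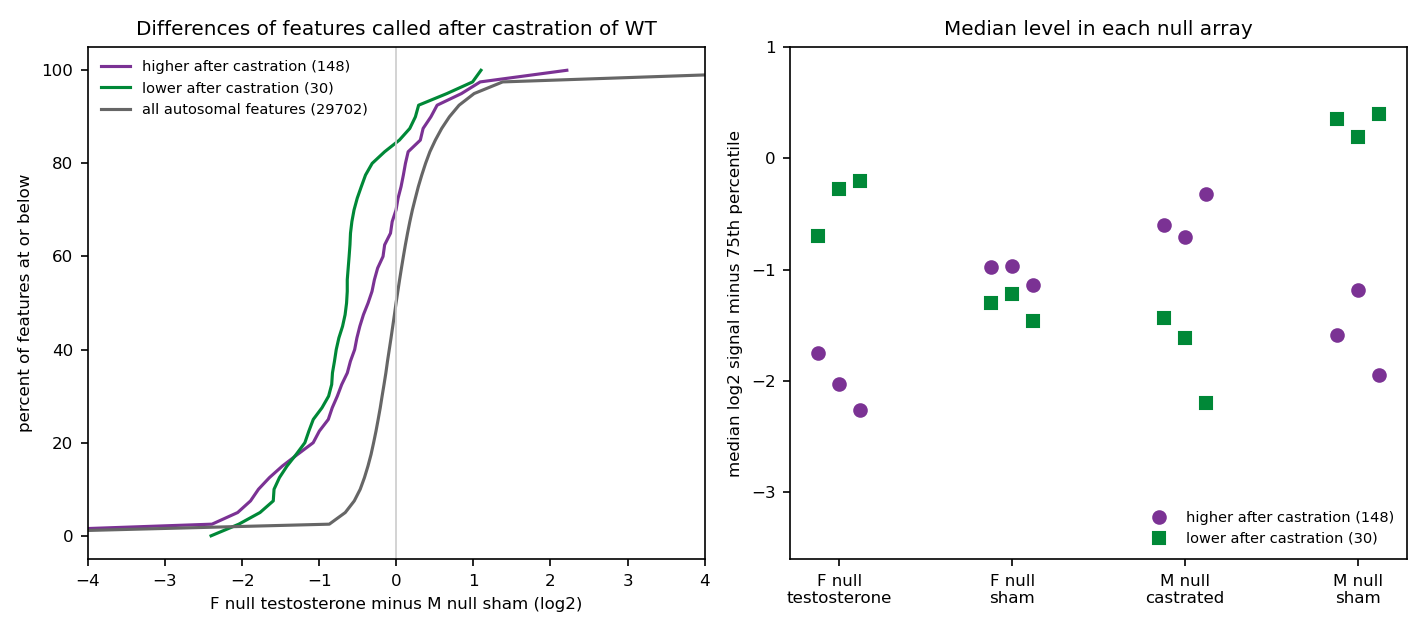
Left, cumulative share of features (vertical axis, percent) by F null testosterone minus M null sham difference (log2) for 148 features higher and 30 lower after castration of WT males, and all 29702 autosomal features. Right, the median level of both sets in each null array, 3 points per group in the order of arrays 1, 2 and 3. Both sets lie left of all features, and the set lowered by castration sits between the 2 sham groups in the testosterone arrays. Without M null sham arrays 1 and 2 the median of the raised set was 0.01.

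Of 17 steroid synthesis genes none passed, 8 were above 0 and the median was -0.03. Star, which carries cholesterol into mitochondria, had a difference of 0.22 (SE 0.19, adjusted p = 0.711), Cyp11b1 of -0.03 (SE 0.16, adjusted p = 0.976) and Cyp11b2, aldosterone synthase, of -0.41 (SE 0.49, adjusted p = 0.801). Cyp11b2 read -0.06, 0.94 and -0.54 in the F null testosterone arrays, against 0.78, 0.69 and 0.12 in the M null sham arrays, and the groups overlapped. Agtr1b, an angiotensin receptor, had a difference of -0.29 (SE 0.35, adjusted p = 0.807). No gene of 30 in the cholesterol list passed, with 25 below 0 and a median of -0.33 (-0.06 without M null sham arrays 1 and 2). Its member with the smallest p was Fdps, an isoprenoid synthase (-1.21, SE 0.28, adjusted p = 0.0772).

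In all, 8 of 40 gene lists held a called member and 32 held none, with medians between -3.68 (X zone, 3 genes) and 3.12 (liver, 21 genes) among the 32. The liver list rested on F null testosterone array 1. Its summed linear signal was 2290, 192 and 163 in the F null testosterone arrays, against 201, 259 and 249 in the M null sham arrays, and Alb, serum albumin, read 8.29, -0.14 and -3.51 against -4.89, 1.15 and -4.40. Summed T and B cell signal was 29.0, 6.92 and 11.0 against 7.51, 7.49 and 9.83 in the M null sham arrays. Without this array and M WT sham array 3, the other array with liver transcripts, the liver median was 0.36, and 185 features were called, 133 higher and 52 lower, 48 of them among the 68. The Akr1d1 difference was then -8.45 (limma, adjusted p = 8.16e-05). The testosterone arrays left read -7.45 and -6.97, and only 1 of the 3 was well above background in the full set. The size of this difference is therefore uncertain, and it is not read as a stronger result.

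The same difference was set against that of WT glands, F WT testosterone (female, wild type, injected with testosterone) minus M WT sham. Of all autosomal features 10 (0.0337%) differed between the null and the WT difference, and in all 10 (0.0337%) the null difference was the lower. Akr1c18, Akr1d1, Frzb, Cst8, Nrep and Cd1d2 were among them. A lower difference is not a lower level. Akr1c18 read 6.51, 7.00 and -3.65 in M null sham arrays, against -3.27, -3.97 and -3.56 in M WT sham arrays. The count was 0 without M null sham array 2, and 0 when only the arrays of the groups compared were fitted.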

How the data were processed

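Adrenal RNA of 24 mouse samples, 3 in each of 8 groups, was measured on one-colour Agilent arrays, and each sample's group came from its label. Each deposited scanner file gives spot intensity and, per the file headers, a background-corrected processed signal from Feature Extraction 10.7.3.1. A deposited table of log2 values, used as an alternative, matched log2 of the median spot signal with nearly equal medians across arrays; its processing is not given in the sources used here. Here log2 of the processed signal minus each array's 75th percentile was used without control or outlier spots. Spots well above background made up 57.0% to 64.8% of each array. Precision is limited by the number of arrays.

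Probes well above background on at least 3 of 24 arrays were kept (36822 of 55681). Names came from the reference annotation by accession (26460) or symbol (4439), or from the file (2758). The probe named by accession, then the one with the highest mean, represented a gene. Probe positions are mm9.

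limma 3.58.1 in R 4.3.3 fitted 8 group means over all 24 arrays (lmFit and eBayes, 16 residual degrees of freedom). Benjamini-Hochberg adjustment covered all 31108 features, and a feature was called under 0.05. Where no array of a group was well above background, a fold is a lower bound. There were 5 comparisons. The procedure was run on simulated arrays with independent normal noise and known changes. They held no slide effect, mixed sample or array with foreign transcripts, so the simulation does not bear on those. Python 3.11.15 wrote the tables.

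The members, the gene lists and the rule for named genes were chosen with earlier results of these data known. The rule takes the 15 largest called falls and rises whose groups do not overlap, apart from predicted and clone names, 8 genes named in advance, the 12 largest each way for sham females against sham males and for testosterone against sham females, and the members of each of 40 lists that were called or had the smallest p. Named genes that fall outside it are marked as such.

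Deviations from group means correlated by -0.01, 0.079 and 0.266 between arrays of the same number in the 2 groups. Over all 84 pairs of arrays of the same number the mean was 0.225 and the lowest -0.357. Numbers were not treated as pairs in the main fit, and counts with slide or number as a block are given below. Alternatives were other background corrections and scalings, filters, blocks by slide or number, a term for RNA integrity, weighted arrays, a robust fit and the omission of arrays. Omitting M null sham arrays 1 and 2 together with the arrays with liver transcripts, and adjusting over autosomal features alone, were added after the data were seen. One called gene is not reported here.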

Additional observations from a re-analysis of the deposited data

Results flagged for a closer look

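The F null testosterone minus M null sham difference was set against the F WT testosterone minus M WT sham difference. By limma's test of the interaction 10 of 29702 autosomal features (0.0337%) differed between them, and in all 10 the null difference was the lower. The largest were Akr1c18 (-16.67, adjusted p = 0.0153) and Akr1d1 (-11.12, adjusted p = 0.0153). For Akr1c18 the null difference was -6.68 and the WT difference 9.99: F null testosterone arrays read -3.78, -3.23 and -3.16 against 6.51, 7.00 and -3.65 in M null sham arrays, and F WT testosterone arrays read 6.57, 5.83 and 6.75 against -3.27, -3.97 and -3.56 in M WT sham arrays. For Akr1d1 the null difference was -6.62 and the WT difference 4.50. Only 1 of the 3 F null testosterone arrays and 1 of the 3 M WT sham arrays were well above background for Akr1d1, so its sizes are uncertain.

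The others were 4930486L24Rik (-5.61), Frzb (-5.14), Clec4e (-5.12), the unnamed probe A_55_P2167347 on chromosome 6 (-4.53), Cst8 (-4.33), Nrep (-4.02), the unnamed probe A_55_P1972386 on chromosome 16 (-2.69) and Cd1d2 (-2.57). Clec4e, a receptor of macrophages, was not well above background in M WT sham arrays, so its size there has only a bound. Without M null sham arrays 1 and 2 the count was 1, without the arrays with liver transcripts 5, and without M null sham array 2 alone 0. The Y-linked genes read 32.9%, 19.2% and 36.0% of the M WT sham level in the F WT testosterone arrays, and M WT sham array 3 carried liver transcripts. The part of either in these differences was not tested.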

How the results depend on the processing

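Counts of calls moved widely with the model and with single arrays. For F null testosterone minus M null sham, 68 calls became 122 with normexp and quantile normalization, 43 with quantile normalization, 41 without the filter on dim probes, 655 with slide as a block, 169 with RNA integrity as a covariate, 1348 with array weights, 185 without the arrays with liver transcripts, and 1 when only its own 6 arrays were fitted. Without M null sham arrays 1 and 2 it was 3, and 14 when the arrays with liver transcripts were also left out. Leaving out 1 array gave 5 (without M null sham 1) to 162 (without F null testosterone 1). Of 35 named called genes, 35 stayed called under the slide block, 28 with normexp, 21 with quantile normalization and 1 without M null sham arrays 1 and 2. Without M null sham array 1 alone, 4 of the 35 stayed called. The cause of these shifts was not tested.

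For F null sham minus M null sham, 206 calls became 536 with the slide block, 343 with RNA integrity, 1923 with array weights, 41 with only its own arrays, 14 without M null sham arrays 1 and 2 and 13 without the liver arrays too, and 51 (without M null sham 1) to 148 when 1 array was left out. For F null testosterone minus F null sham, 59 became 28 without the filter, 137 with the slide block, 261 with array weights, 0 with only its own arrays (limma, 1106 at an unadjusted p under 0.05), and 16 (without F null sham 2) to 61 when 1 array was left out. For M WT castrated minus M WT sham, 178 became 313, 1154 and 109 with the slide block, array weights and only its own arrays, and 78 (without M WT castrated 1) to 127 when 1 array was left out. The null minus WT difference gave 187 with array weights, 0 with only its own arrays (limma, 1152 unadjusted), 1 without M null sham arrays 1 and 2, 5 without the liver arrays, and 0 (without M null sham 2, 1283 unadjusted) to 19 when 1 array was left out. None of the 35 named called genes of the first comparison reversed under the alternatives that measured it.

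With replicate number as a block the counts were 352, 372, 109, 213 and 11 in the same order. By the check described, deviations of arrays of the same number correlated by 0.225 on average over all groups, and by -0.01 to 0.266 in the first comparison. Lost or gained calls are not read as effect sizes. Dim probes have only bounds.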
